A study of Homo sapiens with 2 samples.

Results

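The genes described here are 10 core genes of transforming growth factor beta (TGF-beta) signalling, namely the receptors TGFBR1, TGFBR2, BMPR1A and BMPR2, the SMAD genes SMAD2, SMAD3, SMAD4 and SMAD7, and the corepressor genes TGIF1 and SKI. They were chosen by name, without use of their values, and 8 of the 10 had a row among the 10836 rows of the expression table. BMPR1A and SMAD2 had no row, so their expression was not analysed here. Cells of HCT116, a widely used line from a human colon cancer, were irradiated with ultraviolet light to crosslink proteins to RNA, and RNA that came down from sonicated lysate with an antibody against CNBP (CNBP RIP) was sequenced beside input RNA of the same cell line. CNBP has several zinc fingers and holds G-rich stretches of RNA and of unpaired DNA. There was 1 library per group and no library of a control antibody was used here, so the difference between the libraries has no replicate check and no test was run. No introduced gene change or drug treatment was named for the cells of either library.

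Ligands of the TGF-beta family bind a pair of type II and type I receptor kinases at the cell surface. The type I receptor phosphorylates receptor-regulated SMAD proteins, which join SMAD4 and enter the nucleus, whereas SMAD7 is induced by the pathway and blocks it at the receptor. SKI and TGIF1 bind SMADs on DNA and recruit repressors of transcription. In the colon epithelium the pathway restrains growth, and its receptors and SMADs are often lost in colon cancer. HCT116 cells are known for a defect of mismatch repair and for inactivating frameshifts in TGFBR2, which limits them as a model of TGF-beta responses.

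The study counted G-rich elements in the precipitated sequences, with GGAG as their core, and the first bases of the transcripts of these genes are shown for that motif. In RefSeq sequences (GRCh38.p14), 9 of the 10 genes were matched by symbol, with 30 transcription start sites in all. SKI was not matched. GGAG was looked for on the sense strand in the first 50 bases after each start. It was present at 20 of the 30 starts (66.7%), at 36.6% of all 35116 starts of the sequence table and at 42.6% of the 12169 starts of genes in the expression table. Starts of 1 gene are not independent of each other, and TGFBR1 alone gave 8 of the 20. SMAD3 had it at 4 of 5 starts, TGFBR2 at both of its 2, SMAD7 at 2 of 3, SMAD2 at 1 of 2, TGIF1 at 2 of 7, BMPR2 at its only start, and SMAD4 and BMPR1A at none. A match is a description of these letters and not a binding site. The motif at the start farthest upstream that holds it is given here for each of the 7 genes, 24 bases each from 5′ to 3′, with the first GGAG in capitals.
TGFBR1, chr9:99103658-99103681, plus strand: tgaggctgctGGAGctgcggtgta
TGFBR2, chr3:30606364-30606387, plus strand: gtaaatacttGGAGcgaggaactc
BMPR2, chr2:202376345-202376368, plus strand: tggtctgctcGGAGccactggaag
SMAD2, chr18:47930829-47930852, minus strand: ccgcggcggcGGAGaagcagctcg
SMAD3, chr15:67065605-67065628, plus strand: acacagactgGGAGcgggcgggag
SMAD7, chr18:48949310-48949333, minus strand: agtaaatacGGAGaatcacgtcga
TGIF1, chr18:3449570-3449593, plus strand: tgtcgctgctGGAGgaagagcccc

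Levels were deposited as FPKM (fragments per kilobase of transcript, scaled to 1000000 mapped fragments). They summed to 109684 in the RIP and 214387 in the input. Every row had at least 0.5 FPKM in 1 library or the other. Of 10 markers of colon epithelium 7 were listed, with a summed level of 1483 FPKM in the input and 747 FPKM in the RIP. Among them KRT20 was listed at 0 in the RIP, and KRT19 was nearly level (371 FPKM in the input and 360 FPKM in the RIP). CDH1 was the only one higher in the RIP, with 0.415 FPKM in the input and 3.88 FPKM in the RIP. Of the markers of leukocytes and endothelium none was listed. COL1A1 was the only listed marker of fibroblasts, with 0.199 FPKM in the input and 4.92 FPKM in the RIP. CDH1 and COL1A1 had less than 0.5 FPKM in the input, so they could be listed only with a higher RIP level. Ratios are given as the log2 of FPKM plus 1 in the RIP less that in the input. The median row lay at 0.28 on this scale.

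All 8 listed genes had more FPKM in the RIP than in the input. SKI stood far above the others, with a log2 ratio of 5.08, and the other 7 lay between 0.31 (SMAD4) and 1.74 (TGFBR2). The median of the 8 was 0.92, or 1.89-fold, and 0.70 without SKI. A total of 6 of the 8 were at least 1.5-fold higher (log2 ratio of 0.58) in the RIP, as were 42.6% of all rows, and none was at least 1.5-fold lower, compared with 34.7% of all rows. Only SKI was at least 4-fold higher (log2 ratio of 2), as were 12.5% of all rows, and none was at least 4-fold lower, as were 13.5%.

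The direction of most of these genes was fixed by how rows entered the table. TGFBR1, TGFBR2, BMPR2, SMAD4, SMAD7 and SKI had less than 0.5 FPKM in the input, so that each of these 6 was listed only because it reached 0.5 FPKM in the RIP and had to be higher there. Of the 2392 rows of the table in this position, 85.1% exceeded the input by 1.5-fold or more and 21.4% by 4-fold or more, with a median log2 ratio of 1.16. Of the 6 genes, 5 met the former rule and 1 the latter. Among those 2392 rows SKI lay at percentile 99.7, TGFBR2 at 71.6, TGFBR1 at 59.1, BMPR2 at 23.1, SMAD7 at 19.0 and SMAD4 at 4.08. SKI thus lay near the top of the rows listed through the RIP and SMAD4 near their bottom, with the other 4 in between. Only SMAD3 and TGIF1 would have been listed by their input level alone, and they were also the only ones with 1 FPKM or more in both libraries. Of the 5521 rows with such levels, 33.4% were higher in the RIP by 1.5-fold or more and 39.2% lower, and 10.6% and 16.6% were so by 4-fold or more. SMAD3 was among the former, and TGIF1 met none of these rules.

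**Figure D1:**
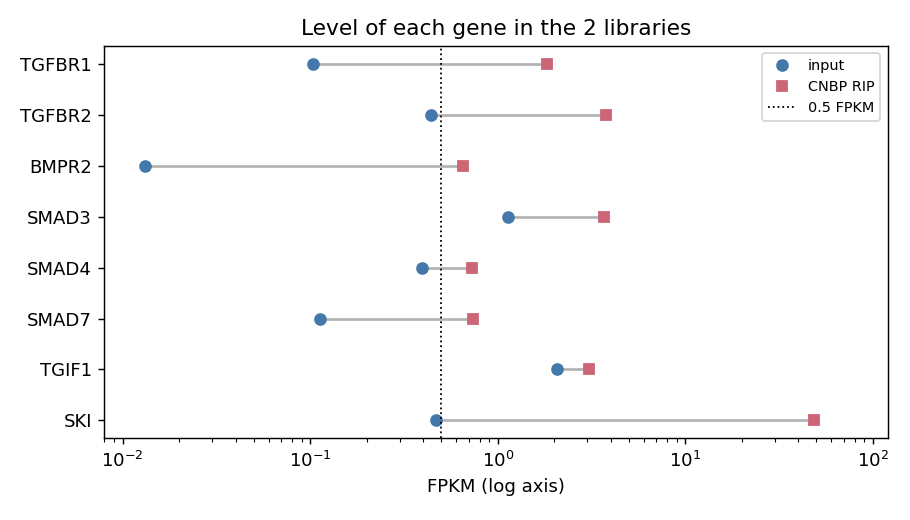
FPKM of the 8 listed genes in the input (circles) and the CNBP RIP (squares), 1 library each, on a log axis, with the 0.5 FPKM limit of the table dotted. The square lies to the right of the circle for all 8 genes, 6 of the circles lie left of the limit, and SKI reached 48.6 FPKM in the RIP.

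**Figure D2:**
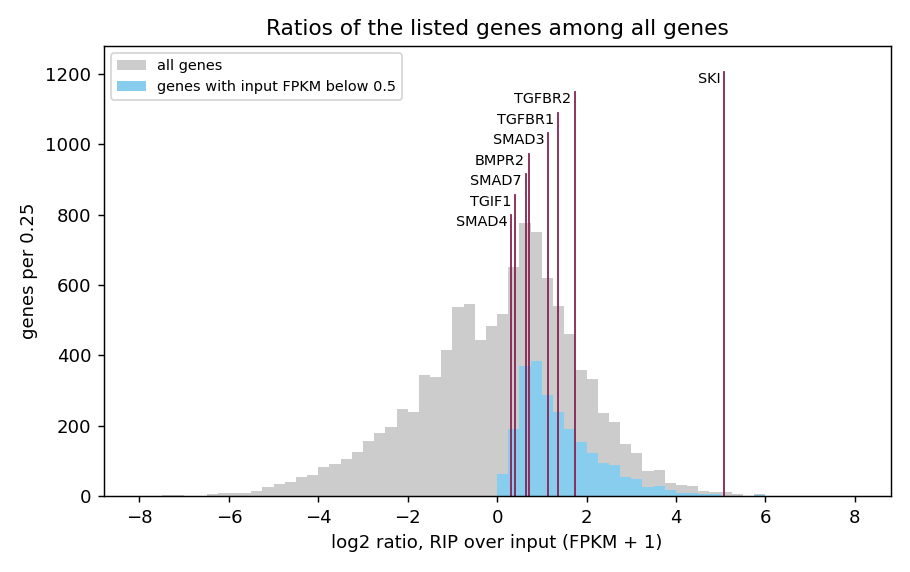
Number of genes by log2 ratio of RIP over input in steps of 0.25, for all 10836 rows (grey) and for the 2392 rows with an input FPKM below 0.5 (blue), which cannot lie below 0. Vertical lines mark the 8 listed genes (line heights only separate the labels), of which 7 lie between 0.31 and 1.74 and SKI lies at 5.08.

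The number of sequenced fragments behind these levels could be estimated from the values themselves. FPKM multiplied by the length it was scaled by gives a number of fragments times a constant of the library. That length need not be the length of a single mRNA, and what it stands for was not tested. A length could be recovered for 9234 rows (85.2%) from the digits of the 2 values, since each value times the length had at most 6 decimals. In the RIP the most common product was 2.71 FPKM kb (161 rows), with a further peak at its double, and 331 rows lay within 1% of it, compared with 22 and 8 rows at values 3% below and above it. In the input it was 0.159 FPKM kb, with 25 rows within 1% of it and 3 and 0 at the neighbouring values. Taking these as the worth of 1 fragment, 1 fragment raised FPKM 17.0 times more in the RIP than in the input, and the 9234 rows held 124419 fragment equivalents in the RIP and 1862250 in the input. The median row above 0 rested on 4.64 fragment equivalents in the RIP and on 47.7 in the input, and 69.4% of rows above 0 in the RIP rested on fewer than 10. A recovered length can be a divisor of the true one, in which case the number of fragments is a lower bound. Many rows held values that were no whole number of fragments, and the cause was not tested.

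**Figure D3:**
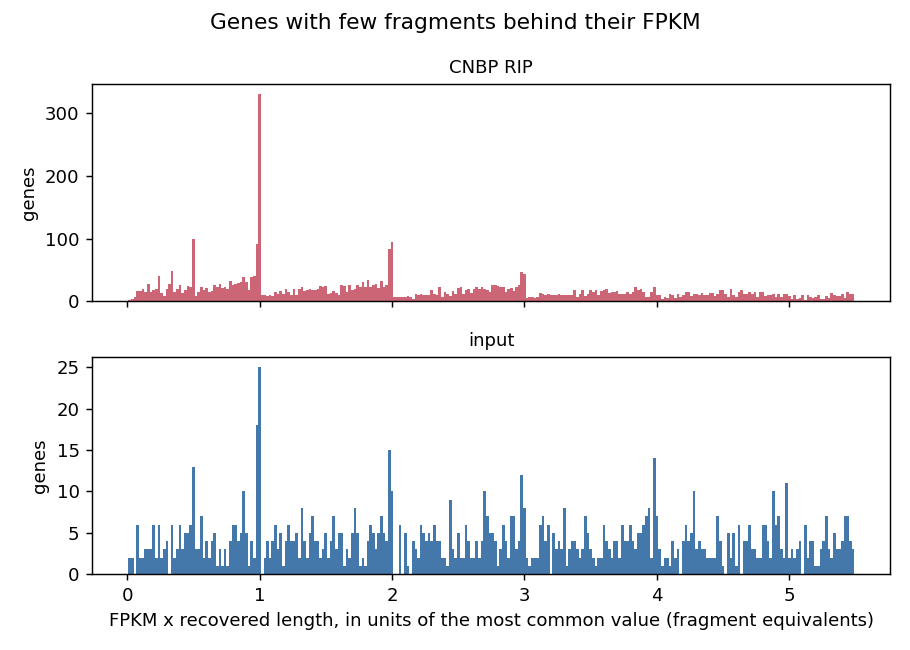
Number of genes (bars, steps of 0.02) by fragment equivalents, that is, FPKM times recovered length over its most common value, up to 5.5 in each library. The RIP has sharp peaks at 1, 2 and 3 fragments, the input has lower peaks at the same places, and the vertical axes differ.

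The 8 genes together rested on 149 fragment equivalents in the RIP, of which SKI gave 73.0%, and on 244 in the input, of which SKI gave 7.37%. The other 7 genes shared 40.3 fragment equivalents in the RIP. A counting interval of the FPKM ratio was therefore formed for each gene from its whole number of fragment equivalents (95%, exact Clopper-Pearson, no pseudocount). It covers counting error only, not the spread between repeated precipitations, the scaling between libraries or the entry of rows through the RIP. Amplified fragments need not be independent molecules. The FPKM sums of the libraries differed, so whether an interval holds 1 also depends on their scaling. On the FPKM scale as deposited, it lay above 1 for 5 genes (TGFBR1, TGFBR2, BMPR2, SMAD3 and SKI). The interval held 1 for 3 (SMAD4, SMAD7 and TGIF1), and no intervals were formed on rescaled libraries. Of the former 5, all but SMAD3 had entered through the RIP, so for these 4 a ratio above 1 was fixed by their entry. Their intervals are no check of direction and describe how coarse the value is. SMAD4 and SMAD7 had entered in the same way, and their intervals held 1.

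Of the receptors, TGFBR2 encodes the type II receptor that binds TGF-beta (ENSG00000163513.17_1, hg19 chromosome 3, 30647994 to 30735634). TGFBR2 had 3.80 FPKM in the RIP and 0.440 FPKM in the input, which placed its log2 ratio of 1.74 at percentile 79.6 of the 8509 rows whose mean FPKM reached 1. The same set of rows is the scale for every gene, although TGFBR1, BMPR2, SMAD4 and SMAD7 have a lower mean and are not in it. Among all 10836 rows TGFBR2 lay at 84.0, TGFBR1 at 77.3, BMPR2 at 61.0, SMAD7 at 59.2 and SMAD4 at 50.6. The levels of TGFBR2 stood for about 7 fragments in the RIP and 13 in the input. The FPKM ratio was 8.64 (3.10 to 24.7), and a single fragment in the RIP was worth 0.576 FPKM for TGFBR2, enough to list it.

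TGFBR1 encodes the type I receptor, the kinase that phosphorylates SMAD2 and SMAD3 (ENSG00000106799.12_1, chromosome 9, 101866320 to 101916474). TGFBR1 had 1.84 FPKM in the RIP and 0.104 FPKM in the input, from about 5 and 4 fragments. Its log2 ratio was 1.36 at percentile 71.6, and the FPKM ratio was 17.6 (4.58 to 107). Both TGF-beta receptor genes entered the table through the RIP, so their direction was fixed, and their intervals overlap widely.

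BMPR2 encodes a type II receptor for bone morphogenetic proteins (ENSG00000204217.12_2, chromosome 2, 203241659 to 203432474). BMPR2 had 0.650 FPKM in the RIP and 0.0132 FPKM in the input, the lowest levels of the 8 genes in both libraries. About 3 fragments and 1 fragment stood behind them. The FPKM ratio was 49.3 (4.10 to 2683), whereas the log2 ratio with a pseudocount of 1 was 0.70 at percentile 58.7, since both levels were below the pseudocount. BMPR2 spans more of the genome than the other 7 genes, and after subtraction of the median of genes of similar span its log2 ratio was -0.84.

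Of the SMAD genes, SMAD3, which encodes a receptor-regulated SMAD of the TGF-beta branch, was the best covered (ENSG00000166949.15_2, chromosome 15, 67356101 to 67487533). SMAD3 had 3.70 FPKM in the RIP and 1.14 FPKM in the input, from about 12 and 65 fragments. The log2 ratio was 1.14 at percentile 66.9, and the FPKM ratio was 3.26 (1.55 to 5.88). SMAD3 is the only one of the 5 genes with an interval above 1 whose input level alone would have listed it. After subtraction of the median of genes of similar span its log2 ratio was -0.41.

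SMAD4 encodes the common partner of the receptor-regulated SMADs (ENSG00000141646.13_2, chromosome 18, 48554764 to 48611415). SMAD4 had 0.729 FPKM in the RIP and 0.392 FPKM in the input, from about 4 and 32 fragments. The log2 ratio of 0.31, at percentile 51.7, was the lowest of the 8 genes. The FPKM ratio was 1.86 (0.547 to 6.01), so the interval held 1 on the FPKM scale as deposited. With libraries rescaled to their mean sum the log2 ratio of SMAD4 was 0.68, and no interval was formed on that scale.

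SMAD7 encodes the inhibitory SMAD that the pathway induces (ENSG00000101665.8_1, chromosome 18, 46446223 to 46477081). SMAD7 had 0.734 FPKM in the RIP and 0.113 FPKM in the input, and a log2 ratio of 0.64 at percentile 57.6. The RIP level was the worth of 1 fragment (1.00 fragment equivalents), and the input level that of about 3. The FPKM ratio was 6.50, with an interval from 0.108 to 70.7. For SMAD7, a single RIP fragment therefore decided both its entry in the table and its place among genes at least 1.5-fold higher.

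Of the corepressors, SKI encodes a proto-oncoprotein that binds SMAD proteins and holds their targets repressed (ENSG00000157933.9_1, chromosome 1, 2160134 to 2241558). SKI had 48.6 FPKM in the RIP and 0.471 FPKM in the input. The RIP level was 12.8 times that of the next of the 8 genes (TGFBR2), and the input level was close to that of TGFBR2. About 109 fragments in the RIP and 18 in the input stood behind SKI. Its log2 ratio of 5.08 (33.7-fold with 1 added to each FPKM) lay at percentile 99.7, and the FPKM ratio was 103 (62.3 to 181). Its interval did not overlap those of TGFBR2, SMAD3, SMAD4 or TGIF1, but those of TGFBR1, BMPR2 and SMAD7 reach into it. After the median of genes of similar span was subtracted the log2 ratio was 3.74. The listed neighbours of SKI on the chromosome did not share its ratio, with FAAP20 at -2.46 upstream and MORN1 at 0.81 downstream. No listed row overlapped any of the 8 genes. The 3 genes closest to SKI in both libraries (Euclidean distance of log2(FPKM + 1) over the 2 libraries) were GOLGA3 (49.6 FPKM in the RIP and 0.551 FPKM in the input), BICD2 (53.0 FPKM and 0.470 FPKM) and HCFC1 (44.5 FPKM and 0.428 FPKM). Those closest to SMAD4, the lowest of the 8, were RSBN1, PAN2 and KRIT1, with ratios of 0.32, 0.34 and 0.35.

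TGIF1 encodes a homeodomain corepressor of SMADs (ENSG00000177426.20_2, chromosome 18, 3411606 to 3459976). TGIF1 had 3.06 FPKM in the RIP and 2.08 FPKM in the input, from about 9 and 108 fragments, and was the gene with the highest input level of the 8. The log2 ratio was 0.40 at percentile 53.2, and the FPKM ratio was 1.47 (0.632 to 2.80), as deposited. With libraries rescaled to their mean sum the log2 ratio of TGIF1 was 1.10, and no interval was formed on that scale. Of the 2 corepressor genes SKI entered the table through the RIP and TGIF1 did not, and the difference between them has no replicate check.

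**Figure D4:**
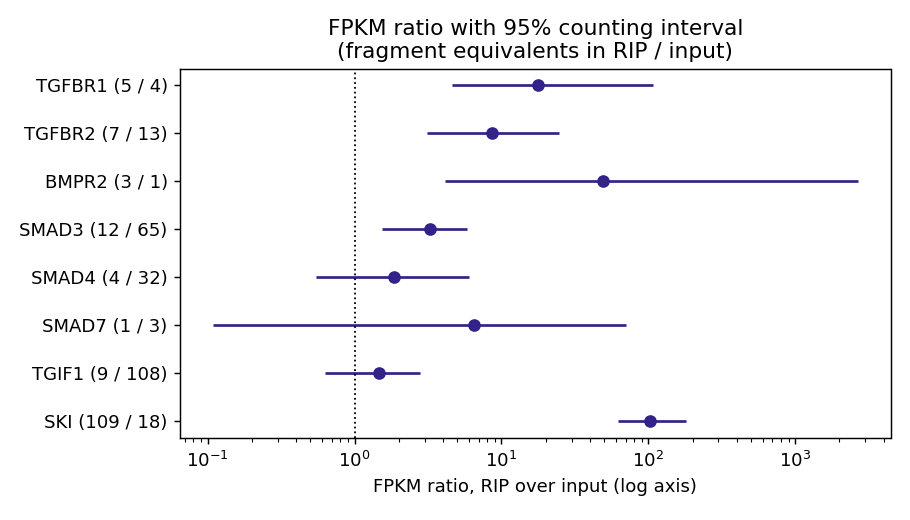
FPKM ratio of RIP over input on a log axis (points), with the 95% Clopper-Pearson counting interval (lines) and the whole fragment equivalents in RIP and input in brackets, 1 library each. The interval of SKI runs from 62.3 to 181, those of SMAD4, SMAD7 and TGIF1 hold 1 (dotted), and that of SMAD7 spans 0.108 to 70.7.

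The closest relatives of these genes were then viewed. SMAD5, a receptor-regulated SMAD of the bone morphogenetic protein branch, had 1.45 FPKM in the RIP and 0.173 FPKM in the input, and SMAD6, the inhibitory SMAD of that branch, had 1.09 FPKM and 0.0982 FPKM. Of the activin receptors, ACVR2B had 2.60 FPKM in the RIP and 0.218 FPKM in the input, ACVR1B had 1.78 FPKM and 0.223 FPKM, and ACVR1 had 1.17 FPKM and 0.301 FPKM. TGIF2, a paralog of TGIF1, had 1.96 FPKM and 0.455 FPKM. All 6 had less than 0.5 FPKM in the input, so that they too could be listed only with a higher RIP level, and their log2 ratios ran from 0.74 (ACVR1) to 1.56 (ACVR2B). ACVR2B rested on about 15 and 22 fragments, with an FPKM ratio of 11.9 (5.61 to 23.4). The others rested on fewer RIP fragments, with 3.45 fragment equivalents for SMAD6, 1.56 for SMAD5, 0.862 for ACVR1, 0.683 for TGIF2 and 0.373 for ACVR1B. The interval of SMAD6 lay above 1 (1.59 to 52.5), and those of SMAD5, ACVR1 and TGIF2 reached below 1. For ACVR1B the RIP value was rounded to 0 fragments, so an interval would start at 0 whatever its level and is not read here. Fragment equivalents under 1 are lower bounds where the recovered length is a divisor of the true one. SMAD1, SMAD9, ACVR2A and SKIL had no row and were not analysed here.

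Other genes of the pathway, grouped by role, lay on both sides. Of 169 such genes 117 were listed, with a median log2 ratio of 0.86. In the RIP, 71 (60.7%) were higher by 1.5-fold or more and 25 (21.4%) lower, beside 42.6% and 34.7% of all rows, and 20 (17.1%) were higher and 7 lower by 4-fold or more, beside 12.5% and 13.5% of all rows. These shares of all rows are the background for the counts of each list. Members with an input below 0.5 FPKM could be listed only with a higher RIP level. Of all such rows, 85.1% were higher by 1.5-fold or more, so the counts of higher genes were partly fixed by entry. Such members were 5 of 13 listed ligands, 6 of 9 genes for latency and release, and 6 of 20 adaptors, ligases and phosphatases. They were 8 of 20 nuclear partners, 4 of 18 genes beside SMADs and 5 of 24 targets. Genes called highest or lowest are so among those whose mean FPKM reached 1. Of the highest genes named below, GDF15, MMP14, USP9X, CREBBP, ROCK1, ROCK2 and JUNB had an input below 0.5 FPKM, so their direction was fixed. The lists differ in how many members entered through the RIP, so that their medians are not compared with each other.

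Of 23 ligand genes 13 were listed, 7 of them at least 1.5-fold higher and 1 lower, with a median of 0.58. GDF15, a stress-induced member of the family, had 50.4 FPKM in the RIP and 0.112 FPKM in the input (5.53). The input level of GDF15 rested on 1.47 fragment equivalents. BMP8B was at 1.54. BMP4, a morphogen of the gut, had 2.03 FPKM in the RIP and 15.8 FPKM in the input (-2.47), and BMP1, a protease that is no true ligand, was at -0.05. Of 15 genes for latency and release of ligands 9 were listed and 8 were at least 1.5-fold higher, with a median of 0.93. FURIN, the protease that cleaves the TGF-beta precursor, was at 2.14 and MMP14 at 1.91. Of the genes for latent TGF-beta binding proteins, LTBP4 was at 1.82, LTBP1 at 0.74, LTBP2 at 0.67 (listed at 0 in the input) and LTBP3 at 0.49, the lowest of the 9. Of 14 antagonist genes 5 were listed, 2 of them at least 1.5-fold higher and none lower. FSTL1 (1.12) and CHRD (0.79) were those higher, both with an input below 0.5 FPKM, while FSTL3, an activin antagonist, was at -0.13 and NBL1 at 0.02. Of 15 further receptors and coreceptors 6 were listed, 5 of them at least 1.5-fold higher. These 5 all had an input below 0.5 FPKM, so that they could be listed only with a higher RIP level. BAMBI, a decoy receptor without a kinase, was the one lower, with 1.03 FPKM in the RIP and 3.44 FPKM in the input (-1.13). Its RIP level rested on 0.440 fragment equivalents.

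Adaptors, ubiquitin ligases and phosphatases that act on receptors and SMADs had a median of 1.45, with 20 of 24 listed, 15 of them higher by 1.5-fold or more and 7 by 4-fold or more. A further 3 were lower by 1.5-fold or more, of which 2 by 4-fold or more. USP9X, a deubiquitinase of SMAD4, had 14.8 FPKM in the RIP and 0.379 FPKM in the input (3.52). SMURF2, a ubiquitin ligase that targets receptors and SMADs, had 29.2 FPKM and 1.82 FPKM (3.42), from about 75 and 80 fragments. FKBP1A, a small protein that binds the type I receptor and keeps it inactive, was at -2.94, and STRAP, a partner of SMAD7 at the receptor, was at -2.06. Of 26 nuclear partners of SMADs 20 were listed, 10 at least 1.5-fold higher and 4 lower, with a median of 0.67. The repressor scaffold SIN3A was at 2.90 and the acetyltransferase CREBBP at 2.77, while E2F4 (-0.58) and SNW1 (-0.80) were lowest of those whose mean FPKM reached 1. Below that level, CITED1 and E2F5 were listed at 0 in the RIP with 1.37 and 0.669 FPKM in the input.

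In the branch that runs beside SMADs, 18 of 19 genes were listed, 11 at least 1.5-fold higher and 5 lower, with a median of 0.95. ROCK2 (3.59) and ROCK1 (2.20), kinases downstream of RHOA, were highest, whereas RHOA itself had 26.9 FPKM in the RIP and 78.4 FPKM in the input (-1.51) and the polarity gene PARD6A was at -1.87. Of 29 known target genes of the pathway 24 were listed, 11 (45.8%) of them at least 1.5-fold higher and 11 lower, beside 42.6% and 34.7% of all rows, with a median of 0.00. ITGB4, an integrin gene, was at 3.37 and ID3, an inhibitor of differentiation, was at -2.96. For 3 targets no fold is given, since JUNB was listed at 0 in the input against 42.1 FPKM in the RIP, and HES1 and SNAI1 were listed at 0 in the RIP against 5.85 and 5.87 FPKM in the input.

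**Figure D5:**
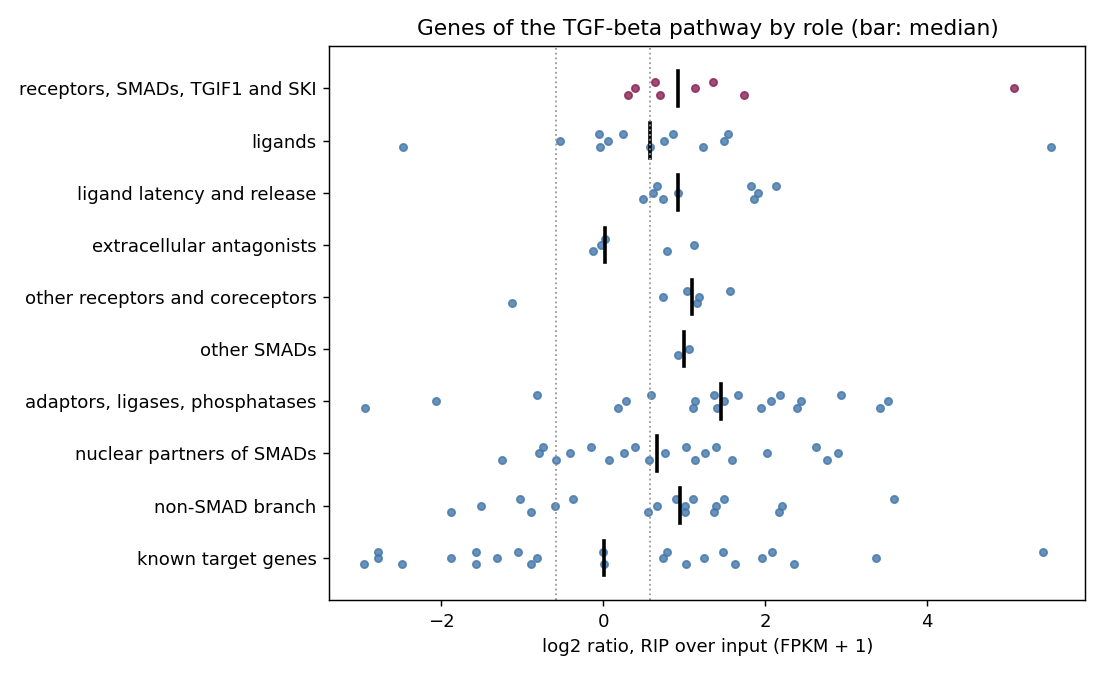
log2 ratio of RIP over input (FPKM plus 1) of each listed gene of the TGF-beta pathway by role, with the receptors, SMADs, TGIF1 and SKI on top (points, vertical scatter only separates them), the median as a bar and 0.58 in either direction dotted. The 8 genes all lie above 0, but 6 of them had an input below 0.5 FPKM and could not lie below it. Known target genes, of which 5 of 24 had such an input, spread to both sides around a median of 0.00.

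Other cell surface receptors and another signalling pathway of colon cancer were set beside the 8 genes. The receptor tyrosine kinases had a median of 1.66 (25 listed of 35), with 23 (92.0%) higher by 1.5-fold or more and 8 (32.0%) by 4-fold or more. Beta-catenin and Wnt regulators had a median of 1.28 (33 listed of 38), with 25 (75.8%) and 12 (36.4%). The 8 genes had a median of 0.92, with 6 (75%) and 1 (12.5%). Of all rows 42.6% and 12.5% met these rules, and of rows listed through the RIP 85.1% and 21.4%. The median level of the 8 genes in the RIP was 2.45 FPKM, beside 6.73 FPKM and 4.50 FPKM for these lists. An input level below 0.5 FPKM was found in 6 of the 8 genes, in 7 of the 25 kinase genes and in 14 of the 33 Wnt genes, and its part in the differences between the lists was not tested.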

How the data were processed

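CNBP RIP and input RNA of HCT116 cells were sequenced with 1 library each. The authors deposited FPKM per gene in 1 table. Of the tools, StringTie, HISAT2, cutadapt and FastQC appear in the submitters' processing notes, with build hg19, and versions were not given in the sources used here. The library kit was stranded, and whether counting used strand is not given. FPKM is not scaled to a common sum.

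A pseudocount of 1 was added to both FPKM values before log2, as the study did, and input was subtracted from RIP. Low levels therefore give ratios closer to 0. Size rules were log2 ratios of 2 (4-fold) and 0.58 (1.5-fold). Percentiles were taken among rows whose mean FPKM reached 1, also for genes below it, and genes of similar span were those in the same of 10 bins of genomic span. Lengths between 200 and 40000 were tried, and the smallest was kept if all other solutions were its multiples. This step and the ratio were tried on simulated data in which every gene held a whole number of fragments. Rows without a whole number, of which there were many here, were not simulated. Gene lists, and the rule for named genes (in each list, 2 from the top and 2 from the bottom of the ratio, if the mean FPKM reached 1, with genes listed at 0 in 1 library and at 5 FPKM or more in the other, besides the nearest relatives), were chosen with earlier results of these data known. Python 3.11.15, numpy 2.4.6, pandas 2.3.3, scipy 1.17.1 and matplotlib 3.10.9 were used. Counting intervals and the shares among rows with an input FPKM below 0.5 were added after the data were seen. Pseudocounts, rescaling, centring, gene span and low-level filters were varied. FSTL1, CHRD, LTBP1, LTBP2, CITED1 and E2F5 were named after their values were seen. Motifs were searched on the sense strand of RefSeq sequences.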

Additional observations from a re-analysis of the deposited data

How the results depend on the processing

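The results rest on 1 library per group and, for 6 of the 8 genes, on fewer than 10 fragment equivalents in the RIP. No paired analysis was possible because each group has 1 library. The median log2 ratio of the 8 genes was 0.92 as reported. It was 2.35, 1.26 and 0.30 with pseudocounts of 0.1, 0.5 and 5. It was 1.44 with libraries rescaled to their mean sum, 2.59 with both rescaled to a sum of 1000000, 0.90 with the mean upper quartile and 1.37 with the mean sum taken without the 20 most abundant genes of either library. After centring on the median row it was 0.64, and after subtraction of the median of genes of similar span 0.10. The median of all rows was 0.28 as reported and 0.85, 1.30, 0.26 and 0.78 under the 4 rescalings. With pseudocounts of 0.1, 0.5 and 5 the median of all rows was 0.43, 0.35 and 0.11. Under all rescalings but the upper quartile, the median row thus met the 1.5-fold rule itself. Shares of all rows meeting the size rules are not given for the pseudocounts, rescalings, centring or span. The counts below therefore lack a background under those settings, and a higher count there is not read as particular to the 8 genes. The number of genes at least 4-fold higher, 1 as reported, was 4 and 2 with pseudocounts of 0.1 and 0.5, 2 with the mean sum, 6 with a sum of 1000000 and 2 with the mean sum without the most abundant genes. Among genes with at least 1 FPKM in both libraries it was 0. The number at least 1.5-fold higher, 6 as reported, was 8 under 3 of the rescalings (all but the upper quartile), 7 with a pseudocount of 0.1, 4 after centring, 2 with a pseudocount of 5, 2 after subtraction of the median of genes of similar span, and 1 among genes with at least 1 FPKM in both libraries. The number at least 1.5-fold lower, 0 as reported, was 1 after subtraction of the median of genes of similar span. That subtraction turned the ratios of BMPR2 to -0.84, SMAD4 to -0.55, SMAD3 to -0.41 and TGIF1 to -0.20. The median of genes ran from -1.57 in the bin of shortest span to 1.55 in that of longest span. SKI lay between 3.29 and 7.12 under the 9 alternatives and was the highest of the 8 genes in each.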
